A study of Homo sapiens with 12 samples.

Results

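Vehicle-treated OPM2 cells were described here across genes, as the baseline state of the line before any inhibitor. OPM2 is an established human multiple myeloma line, so 1 line stands for the disease in every value below. The series held 12 QuantSeq 3' mRNA libraries of OPM2, 3 each after 2 h with DMSO vehicle, JQ1 at 250 nM, BKM120 at 1 µM or 18DS at 250 nM. The 3 DMSO libraries, labelled as a biological triplicate, are the members, and no other group enters the levels. They held 6594995, 6071892 and 5940610 counts, within the 5501895 to 7692013 counts of the 12 libraries. Cells without vehicle were not analysed here, so the state described is that of DMSO-treated cells, and the spread given is that between these 3 libraries.

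Plasma cells are antibody-secreting cells. They arise from B cells when IRF4, PRDM1 and XBP1 replace the B cell programme held by PAX5, and they enlarge the endoplasmic reticulum (ER) to fold, glycosylate and export immunoglobulin. Multiple myeloma is a cancer of these cells. In 1 of its recurrent rearrangements, the t(4;14) translocation, the histone methyltransferase gene NSD2 and the receptor tyrosine kinase gene FGFR3 come under the control of immunoglobulin heavy chain enhancers. The survival of myeloma cells is known to lean on MCL1, on IL-6 signalling and on the proteasome.

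Levels are CPM, the counts of a gene in every 1000000 counts of its library, given as the mean ± SD of 3 libraries. QuantSeq reads the 3' end of polyadenylated RNA, so a long and a short transcript each give 1 tag, and levels of different genes were set side by side as tags with no division by length. Across 10505 protein-coding genes at 1 CPM or more, the level and the longest annotated transcript had a Spearman rho of -0.13. The median level was 24.99 CPM in the 2627 genes with the shortest transcripts and 14.3 CPM in the 2626 with the longest. Of 63152 gene identifiers in the table, 23787 had a count in at least 1 of the 3 libraries, and 13472 reached a mean of 1 CPM. Among 19335 protein-coding genes, 10505 (54.3%) reached 1 CPM, 1212 reached 100 CPM, and 101 of these reached 1000 CPM. The median over all protein-coding genes, undetected ones included, was 2.103 CPM, and 26.3% of them had 0 counts. Counts of list members below are to be read beside this 26.3% at 0 and the 54.3% at 1 CPM or more. A gene with 0 counts in the 18607497 counts of the 3 libraries together may still have a level of up to 0.161 CPM, the level that 3 counts would give. This limit covers counting error alone.

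The libraries were not equally alike. On the log2 CPM scale, Pearson's r across identifiers at 1 CPM or more was 0.988 to 0.989 for the 3 pairs, which share their genes and are no independent test. The chi-square per degree of freedom, which is near 1 where counting noise is the only difference, was 1.92 between replicates 2 and 3. It was 4.30 between replicates 1 and 2, and 4.76 between replicates 1 and 3. Replicate 1 therefore stood apart from the others. The biological coefficient of variation shared by all genes (edgeR, 11734 genes) was 0.0777, and it was 0.0437 without replicate 1.

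A few families took much of each library. The 100 highest identifiers held 35.2% ± 0.146 of counts. The 80 genes of cytosolic ribosomal proteins held 16.6% ± 0.483, and the 13 messages encoded by the mitochondrial genome held 4.73% ± 0.219. The highest identifier, ENSG00000272060, has no symbol in the tables used and stood at 28528 CPM ± 735. Below it came MT-CO3, a subunit of cytochrome c oxidase, at 14423 CPM ± 334, the elongation factor EEF1A1 at 10925 CPM ± 644, and RPS28 at 10806 CPM ± 912. EEF1A1P5, a pseudogene copy of EEF1A1, was listed at 10685 CPM ± 631, within 5% of its parent in every library. ATG10, an autophagy gene whose exons overlap RPS23, stood at 4793 CPM ± 224 beside 4963 CPM ± 206 for RPS23. In such pairs 1 set of reads may be counted for both names, and the level of each is uncertain. RPS28 likewise has a pseudogene copy, RPS28P7, at 5198 CPM ± 373. Of the genes named below without a further remark, CRBN, IRF3, JAK1, PSMB8, PSMB9 and SEC24A overlap exons of an identifier of like or higher level and are uncertain in the same way. Other genes of high level lay outside the lists below and had no partner by exon overlap or by counts within 5%. These were PTMA (4702 CPM ± 307), CHCHD2 (2744 CPM ± 239) and the MHC class I light chain B2M (2398 CPM ± 61.6). The cyclophilin PPIA (2377 CPM ± 76.1) and TPT1 (2369 CPM ± 63.4) came next. PTMA has a pseudogene copy, PTMAP5, at 2464 CPM ± 78.2, so its level is uncertain, as for RPS28.

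**Figure D1:**
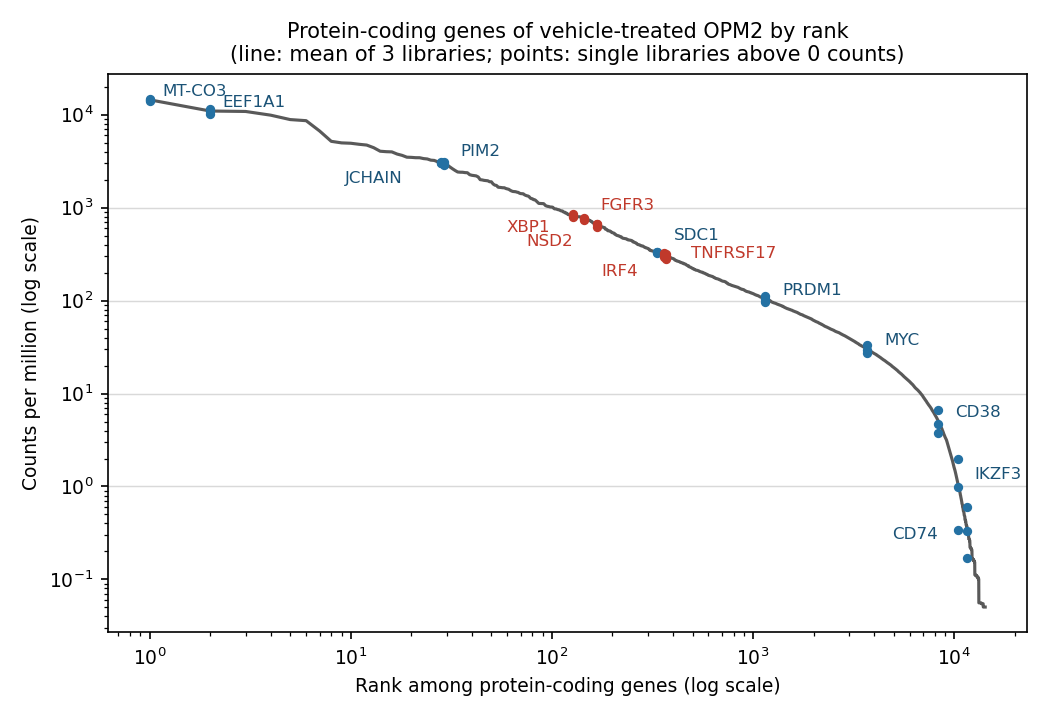
Level in CPM (vertical, log scale) against rank among protein-coding genes (horizontal, log scale) in vehicle-treated OPM2. The line is the mean of 3 libraries, points are single libraries with at least 1 count, and red marks XBP1, FGFR3, NSD2, IRF4 and TNFRSF17, which lie between rank 127 and rank 371, while CD74 lies at the lower end.

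The labelled cell type was checked against 5 markers of plasma cells and t(4;14) myeloma, and all 5 lay within the highest 2% of protein-coding genes. They are members of lists chosen with earlier results of these data known, so their rank is no independent check of the label. Further plasma cell markers planned for this check ranked from high to low. SDC1 was at rank 333 among protein-coding genes, POU2AF1 at 410, SLAMF7 at 811, PRDM1 at 1150 and CD38 at 8324. XBP1, the transcription factor of the secretory programme, measured 856, 812 and 793 CPM in replicates 1 to 3 (820 CPM ± 32.2). FGFR3 measured 744, 763 and 764 CPM (757 CPM ± 11.2), and NSD2 measured 671, 672 and 613 CPM (652 CPM ± 34.1). The level of FGFR3 was above that of NSD2 in every library, by a ratio of 1.16 ± 0.0734. IRF4, a transcription factor on which myeloma cells depend, measured 310, 324 and 295 CPM (310 CPM ± 14.5). TNFRSF17, which encodes the surface antigen BCMA, measured 283, 303 and 319 CPM (302 CPM ± 18.1). The libraries of IRF4 and TNFRSF17 overlapped, so their order was not resolved, whereas XBP1 was above FGFR3 in every library. None of the first 5 markers varied between libraries by more than a CV of 6.01%.

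Among the other plasma cell transcription factors, levels ranged from 0.111 to 271 CPM. POU2AF1, the B cell coactivator OBF-1, reached 271 CPM ± 9.32, TCF3 266 CPM ± 4.197 and MEF2C 238 CPM ± 10.4. PRDM1, which encodes BLIMP-1, reached 104 CPM ± 8.35 and was not separated from KLF13 at 102 CPM ± 3.59. IKZF1 (Ikaros) measured 48.4 CPM ± 3.65, FOXO1 36.5 CPM ± 2.74 and POU2F2 5.09 CPM ± 0.749. Lower still, SPIB, IKZF3, ZNF215 and ZBTB20, lay between 0.965 and 1.53 CPM, and BHLHE41 was at 0.111 CPM. IKZF3 (Aiolos), which with Ikaros is a target of the immunomodulatory drugs, gave 13, 6 and 2 counts in replicates 1 to 3, with its highest value in the library that stood apart. In all, 13 of 15 listed factors reached 1 CPM, with a median of 48.4 CPM.

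The B cell programme was nearly absent. PAX5, MS4A1 (CD20), CD79A, CD40, CD24, BLK, TCL1A, RAG2 and VPREB1 had 0 counts in the 3 libraries. EBF1 and FCER2 had 1 count each, both in replicate 2, and CD22 had 2 counts, both in replicate 1. Of the 26 listed genes, 7 reached 1 CPM, beside 54.3% of all protein-coding genes, and the list's median was 0.0561 CPM. The highest, CIITA, the master regulator of MHC class II genes, stood at 54.5 CPM ± 4.32. Its exons overlap those of DEXI, at 52.0 CPM, so the CIITA value is uncertain. HLA-DRA measured 25.4 CPM ± 2.79, whereas CD74, the class II invariant chain, had 4, 2 and 1 counts (0.368 CPM ± 0.222). BACH2 was at 6.42 CPM ± 0.749 and CD79B at 2.86 CPM ± 0.741.

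Surface genes of plasma cells spanned the whole range. ITGB7, the integrin beta 7 chain, was highest at 533 CPM ± 17.2, followed by SDC1 (CD138), the classical plasma cell antigen, at 330 CPM ± 5.66. BST2 measured 281 CPM ± 12.3, SLAMF7 142 CPM ± 11.8 and CD48 129 CPM ± 3.94, with SLAMF7 highest in replicate 1. The chemokine receptors were led by CCR1 (93.1 CPM ± 6.77), above CXCR4 (47.8 CPM ± 3.53) and CCR10 (42.7 CPM ± 6.43). CD38, the target of daratumumab, gave 44, 23 and 28 counts, a low level of 5.06 CPM ± 1.47. GPRC5D and FCRL5, both targets of antibody therapies, were near 1 CPM at 1.29 CPM ± 0.0969 and 1.41 CPM ± 0.387. CD27 was at 0.327 CPM, and TNFRSF13B (TACI), TNFRSF13C (the BAFF receptor), ICAM1 and CD200 had 0 counts. BCMA was thus the 1 receptor of the BAFF and APRIL ligands in the list with counts. CD70 was uneven, with 4, 44 and 25 counts, lowest in replicate 1. Of 35 surface genes, 25 reached 1 CPM, with a median of 17.0 CPM.

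Immunoglobulin constant gene tags were almost all of the lambda light chain. IGLC3 measured 5238, 4649 and 5648 CPM (5178 CPM ± 502), and IGLC2 measured 4820, 4365 and 5324 CPM (4836 CPM ± 480). The 2 genes are near copies whose libraries overlapped, so their split is uncertain. IGLC1 and IGLL5, which share exons, were listed at 198 CPM ± 28.5 each, highest in replicate 1. IGKC, the kappa constant gene, had 0 counts, as did IGHM, IGHD and IGHE. Heavy chain tags were few: IGHG1 measured 29.2 CPM ± 3.53 and the other 3 gamma genes 1.77 to 4.77 CPM. The 4 gamma genes together came to 38.1 CPM ± 5.47, and IGLC2 with IGLC3 exceeded them by a ratio of 267 ± 51.6. JCHAIN, the joining chain of polymeric immunoglobulin, measured 3023, 3067 and 3035 CPM (3042 CPM ± 22.6), a CV of 0.742%. It exceeded IGHG1 by a ratio of 105 ± 12.4.

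Promoter sequence was set beside these levels, since genes of both programmes include strong and silent cases. RefSeq promoter windows (GRCh38.p14, 250 bases before to 50 bases after the start, the most upstream start of each gene) matched 15016 of 19335 protein-coding genes (77.7%). The CpG ratio, the number of CG dinucleotides over the number that the C and G content would give, had a median of 0.344 in the 3714 genes with 0 counts. The median was 0.629 in genes with counts but under 1 CPM, 0.814 from 1 to under 10 CPM, 0.868 from 10 to under 100 CPM, 0.890 from 100 to under 1000 CPM and 0.911 in the 76 genes at 1000 CPM or more. A ratio of at least 0.6 was found in 33.5% of undetected genes, 94.7% of genes at 1000 CPM or more and 66.9% of all. The letters TATAAA, searched on both strands of the 300-base window, were in 18.2% of undetected genes, 4.53% of genes from 10 to under 100 CPM, 7.89% at 1000 CPM or more and 9.48% of all. The letters CCGGAAG, the core bound by ETS factors, were in 3.63% of undetected genes, 23.5% from 10 to under 100 CPM, 34.2% at 1000 CPM or more and 14.4% of all. CCGGAAG itself holds a CG, so it is not separate from the CpG ratio, and a match is a description of letters, not a bound site.

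**Figure D2:**
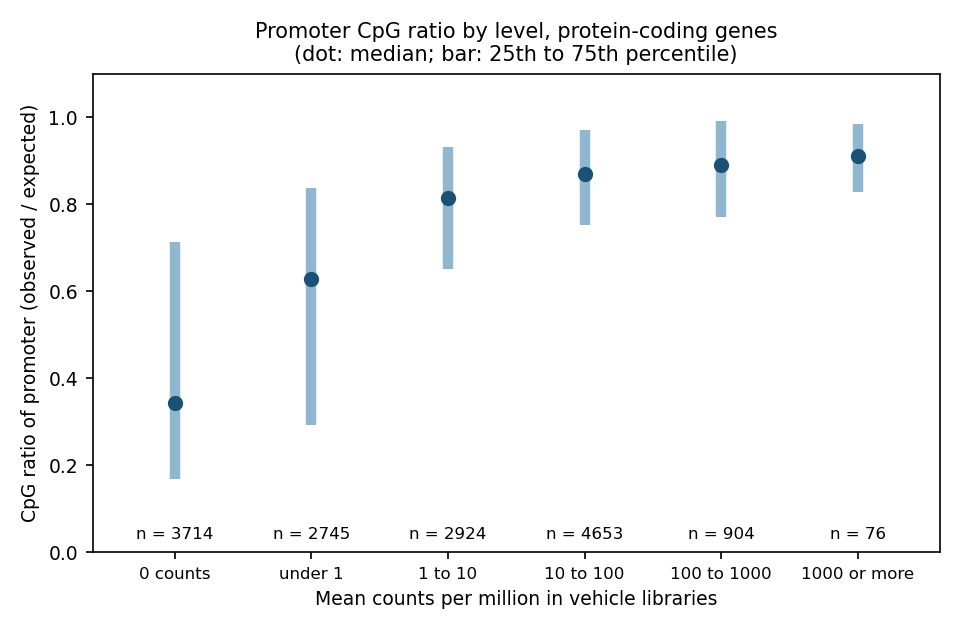
CpG ratio of the promoter window (vertical, observed over expected CG count) by level of the gene in CPM (horizontal) for protein-coding genes with a RefSeq promoter. Dots are medians, bars run from the 25th to the 75th percentile, and the median goes from 0.344 at 0 counts to 0.911 at 1000 CPM or more.

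Of the 4 promoters below, XBP1 and CD79A follow this trend, while PAX5 and JCHAIN depart from it, in opposite directions. Each line gives the 250 bases upstream of the start, 5′ to 3′ on the strand of the gene, with every CG in capitals. XBP1 (chr22:28800570-28800819, minus strand, 31 CG, ratio 1.09) and PAX5 (chr9:37034269-37034518, minus strand, 27 CG, ratio 0.892) are both rich in CG, at 820 and 0 CPM. JCHAIN (chr4:70666509-70666758, minus strand, 0 CG) and CD79A (chr19:41877029-41877278, plus strand, 4 CG, ratio 0.156) are both poor in CG, at 3042 and 0 CPM. The windows were chosen as examples after their values were seen.
XBP1: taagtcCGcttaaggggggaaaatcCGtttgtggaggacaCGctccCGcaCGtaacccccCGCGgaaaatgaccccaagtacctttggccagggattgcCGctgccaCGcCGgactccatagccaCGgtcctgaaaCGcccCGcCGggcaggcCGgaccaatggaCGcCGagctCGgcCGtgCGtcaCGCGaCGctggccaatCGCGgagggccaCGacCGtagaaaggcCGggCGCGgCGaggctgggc
JCHAIN: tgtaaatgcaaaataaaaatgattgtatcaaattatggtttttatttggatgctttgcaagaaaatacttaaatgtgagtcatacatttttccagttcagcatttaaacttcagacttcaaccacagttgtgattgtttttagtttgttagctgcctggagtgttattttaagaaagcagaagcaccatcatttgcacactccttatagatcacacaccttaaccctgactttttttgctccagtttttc
PAX5: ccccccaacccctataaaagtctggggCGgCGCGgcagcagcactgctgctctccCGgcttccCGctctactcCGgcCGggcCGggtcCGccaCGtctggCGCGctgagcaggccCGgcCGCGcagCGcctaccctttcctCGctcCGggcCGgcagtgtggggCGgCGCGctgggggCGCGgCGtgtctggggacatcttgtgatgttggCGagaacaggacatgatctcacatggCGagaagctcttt
CD79A: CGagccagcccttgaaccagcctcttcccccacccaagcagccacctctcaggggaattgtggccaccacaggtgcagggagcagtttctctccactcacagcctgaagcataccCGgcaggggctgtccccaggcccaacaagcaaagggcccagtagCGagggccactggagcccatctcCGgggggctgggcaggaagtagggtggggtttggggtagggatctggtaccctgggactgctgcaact

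The machinery of secretion was detected almost throughout. All 25 genes of ER translocation were at 28.2 CPM or more, with a list median of 191 CPM. SRP14, a subunit of the signal recognition particle, measured 950 CPM ± 41.5, the translocon subunit SEC61G 921 CPM ± 51.9 and TRAM1 774 CPM ± 15.02. SEC11C, a catalytic subunit of the signal peptidase, stood at 369 CPM ± 42.5, highest in replicate 1, above SEC11A at 176 CPM ± 5.31. Of 25 genes of N-glycosylation, 24 reached 1 CPM, with a median of 74.3 CPM. Glucosidase II subunit GANAB led them at 443 CPM ± 23.7. Both catalytic subunits of the oligosaccharyltransferase were present, STT3A at 134 CPM ± 7.77 and STT3B at 104 CPM ± 1.19. TUSC3, a subunit that can stand in place of MAGT1, had 0 counts, against 52.2 CPM ± 1.701 for MAGT1.

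Chaperones and disulfide enzymes of the ER had a median of 94.8 CPM, and all 35 reached 1 CPM. HSPA5 (BiP), the main ER chaperone, measured 798 CPM ± 16.6 and HSP90B1 (GRP94) 588 CPM ± 28.5. The disulfide isomerase PDIA6 was listed at 743 CPM ± 12.5 and calreticulin (CALR) at 496 CPM ± 56.6, but both overlap exons of another identifier of like level. MZB1, which assists immunoglobulin assembly, stood at 94.8 CPM ± 4.35. The 2 ER oxidoreductins differed, with ERO1A at 36.3 CPM ± 2.64 and ERO1B at 1.34 CPM ± 0.0238.

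Genes of the unfolded protein response lay lower, with a median of 36.6 CPM over 30 genes that all reached 1 CPM. XBP1 headed this list too, followed by EDEM3 (321 CPM ± 10.97) and ATF4 (263 CPM ± 4.51). The 3 stress sensors were ordered EIF2AK3 (PERK) at 71.0 CPM ± 3.14, ATF6 at 54.4 CPM ± 3.16 and ERN1 (IRE1 alpha) at 6.33 CPM ± 1.53. Of genes induced under prolonged ER stress, DDIT3 (CHOP) measured 34.8 CPM ± 1.08, TRIB3 7.86 CPM ± 1.84, ATF3 3.61 CPM ± 0.268 and CHAC1 2.19 CPM ± 0.458. ERN2 was listed at 36.15 CPM ± 0.973, and both it and DDIT3 overlap exons of another identifier.

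All 43 genes of ER to Golgi transport were at 4.73 CPM or more, with a median of 48.1 CPM. ARF1 measured 629 CPM ± 14.9, the KDEL receptor KDELR1 584 CPM ± 81.4 and the cargo receptor LMAN1 310 CPM ± 14.6. KDELR1 gave 3235, 3814 and 3770 counts, lowest in replicate 1, the library with the highest total. Of the COPII subunits, SEC23B (67.4 CPM ± 3.96) was above SEC23A (9.68 CPM ± 2.12), and SEC24D (25.3 CPM ± 3.38) above SEC24A (6.51 CPM ± 0.904). For the proteasome, the target of bortezomib, 37 of 38 subunits reached 10 CPM, with a median of 101 CPM. PSMA7 led at 448 CPM ± 13.2, and PSMB5, the subunit bortezomib binds, stood at 105 CPM ± 9.50. The inducible subunits PSMB8 and PSMB9 measured 60.05 CPM ± 3.52 and 20.1 CPM ± 0.351, and the thymus subunit PSMB11 had 0 counts.

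**Figure D3:**
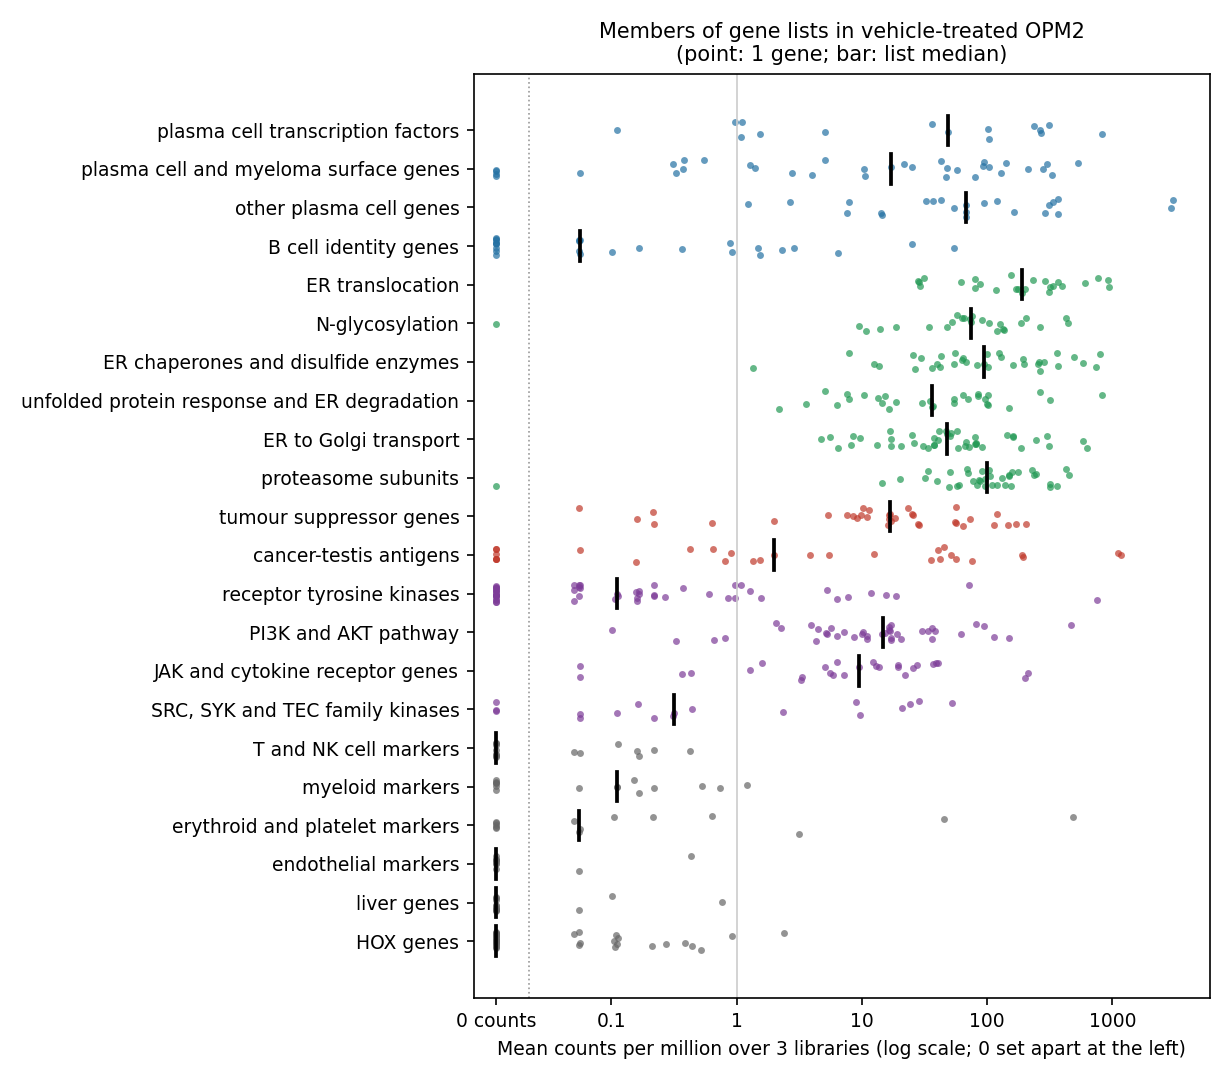
Mean CPM over 3 libraries (horizontal, log scale, 0 counts set apart at the left) for the members of 22 gene lists, 1 point per gene, with the list median as a bar. Medians of the secretion lists lie between 36.6 and 191 CPM, while 19 of 26 B cell genes and 42 of 53 receptor tyrosine kinases lie below 1 CPM. Of all protein-coding genes, 54.3% reach 1 CPM.

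Translocation partners known from myeloma were uneven. Besides FGFR3 and NSD2, CCND2 was high, at 354, 285 and 258 CPM (299 CPM ± 49.3), with its highest value in replicate 1. CCND3 measured 18.0 CPM ± 2.87, and CCND1, the partner in t(11;14), gave 0, 6 and 3 counts (0.498 CPM ± 0.494). CCND2 exceeded CCND3 by a ratio of 22.7, 16.5 and 12.2 in replicates 1 to 3. MAF, the partner in t(14;16), was at 24.5 CPM ± 4.06, lowest in replicate 1. MYC measured 29.4, 32.9 and 27.4 CPM (29.9 CPM ± 2.79), rank 3698 among protein-coding genes. Its partner MAX stood at 146 CPM ± 6.28, a ratio over MYC of 4.92 ± 0.622. MYCN was at 3.88 CPM ± 0.740 and MYCL at 0.626 CPM ± 0.508.

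NSD2 stood apart from its family. ASH1L measured 73.2 CPM ± 6.96, NSD3 46.4 CPM ± 4.97, SETD2 28.2 CPM ± 2.13 and NSD1 13.2 CPM ± 2.94, all histone methyltransferases, and each was separated from the next in every library. NSD2 exceeded NSD3 by a ratio of 14.19 ± 2.1004 and NSD1 by 50.8 ± 10.7. In RefSeq gene order on chromosome 4, TACC3 lies next to FGFR3, and LETM1 lies between FGFR3 and NSD2. TACC3, a mitotic spindle gene, measured 444 CPM ± 32.9, whereas LETM1 measured 57.7 CPM ± 4.25, TMEM129 49.4 CPM ± 1.102, SLBP 88.9 CPM ± 10.8 and NELFA 55.7 CPM ± 4.13. Within 6 genes of FGFR3 on either side, FGFR3, NSD2 and TACC3 were thus the 3 genes above 100 CPM.

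Of 35 tumour suppressor genes, 30 reached 1 CPM, with a median of 16.9 CPM. CDKN2A, the INK4a and ARF locus, measured 145, 181 and 181 CPM (169 CPM ± 20.8), lowest in replicate 1, and RB1 measured 55.6 CPM ± 2.84. TENT5C, a poly(A) polymerase gene often inactivated in myeloma, stood at 121 CPM ± 8.54. CDKN2C, the INK4c inhibitor on chromosome 1, gave 1, 1 and 2 counts (0.218 CPM ± 0.103). Its neighbour FAF1 gave 0, 0 and 4 counts. Among the 6 genes on either side, RNF11 alone reached 1 CPM, at 14.2 CPM ± 0.352. Many of these neighbours are pseudogenes or other non-coding identifiers, and 21.3% of all identifiers in the table reached 1 CPM. BIRC3 was at 0.639 CPM ± 0.264, SP140 at 0.160 CPM and FAT1 at 0.0549 CPM. DNA copy number was not measured in these data.

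Among 28 genes of RAS and MAPK signalling, 26 reached 1 CPM. NRAS measured 44.3 CPM ± 5.63 and HRAS 24.0 CPM ± 1.01, whereas BRAF was at 3.70 CPM ± 0.214. Of the ERK feedback genes, the phosphatase gene DUSP4 stood at 106 CPM ± 4.42 and DUSP6 at 15.3 CPM ± 0.437. SPRY2 was at 0.743 CPM ± 0.290, and SPRY4 had 0 counts.

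Cancer-testis antigens, which in healthy tissue are known from germ cells, included some of the highest genes of the line. CTAG1B (NY-ESO-1) measured 1166 CPM ± 95.9 and CTAG2 1109 CPM ± 89.5. CTAG1A, a near-identical copy of CTAG1B, was listed at 0 counts, so how tags divide among these genes is uncertain. MAGEA3 and MAGEA6, also near copies, stood at 194 CPM ± 11.8 and 190 CPM ± 11.5, MAGEC1 at 75.9 CPM ± 3.08 and PRAME at 35.6 CPM ± 2.62. Of 29 such genes, 17 reached 1 CPM, near the 54.3% of all protein-coding genes that did. MAGEA2, MAGEB1, SPANXB1, SSX4 and SYCP1 had 0 counts besides CTAG1A, where 26.3% of all protein-coding genes had 0. The class as a whole was thus not set apart by these counts. Germline and pluripotency genes outside this group were mostly at 0, with 12 of 14 below 1 CPM and ZP3 highest at 3.24 CPM ± 1.01.

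FGFR3 dominated the receptor tyrosine kinases. The 53 genes of this class summed to 906, 900 and 905 CPM in replicates 1 to 3, of which FGFR3 made up 744, 763 and 764 CPM. The insulin receptor INSR came next at 86.6, 65.7 and 62.1 CPM (71.5 CPM ± 13.2), highest in replicate 1, and FGFR3 exceeded it by a ratio of 10.8 ± 1.97. EPHB2, RYK and NTRK3 lay between 11.8 and 18.6 CPM, and IGF1R, the receptor of a myeloma growth factor, was at 7.80 CPM ± 1.43. In the FGF receptor family, FGFR1 gave 4 counts in all, FGFR4 gave 1 in each library, and FGFR2 had 0. Of the 53 genes, 11 reached 1 CPM, beside 54.3% of all protein-coding genes. A total of 17 had 0 counts, among them ALK, KDR, PDGFRA, PDGFRB and ROS1, where 26.3% of all protein-coding genes had 0.

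Signalling kinases below the receptors showed a marked order within each family. PIM2, a serine/threonine kinase that supports myeloma growth, measured 2846, 3057 and 2945 CPM (2950 CPM ± 106), rank 29 among protein-coding genes. PIM3 measured 253 CPM ± 0.936 and PIM1 11.1 CPM ± 1.16. The 3 PIM genes were separated in every library, with ratios of 11.7 ± 0.440 for PIM2 over PIM3 and 23.1 ± 2.51 for PIM3 over PIM1. AKT2 measured 468 CPM ± 28.5 and AKT1 62.2 CPM ± 2.27. AKT2 exceeded AKT1 by a ratio of 7.55 ± 0.684.

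The class I PI3K catalytic genes were all below 20 CPM. PIK3CD, the isoform of white blood cells, was listed at 16.9 CPM ± 1.25, PIK3CB at 11.02 CPM ± 1.53, PIK3CA at 7.15 CPM ± 0.246 and PIK3CG at 0.660 CPM ± 0.447. PIK3CD overlaps exons of another identifier, so its place at the top is uncertain. MTOR gave 165, 98 and 93 counts (18.9 CPM ± 5.27), highest in replicate 1. Of 40 genes of the pathway, 36 reached 1 CPM, with a median of 14.9 CPM.

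Among SRC, SYK and TEC family kinases, several that act in B cell receptor signalling were at or near 0. SYK gave 1, 2 and 5 counts, BTK 4, 1 and 1 counts, and BLK, LCK and BMX had 0 counts. LYN, the main SRC family kinase of B cells, measured 24.3 CPM ± 0.887 and was below YES1 at 28.7 CPM ± 2.43. CSK, which inhibits these kinases, was highest at 52.2 CPM ± 3.68. Of 18 genes in the class, 7 reached 1 CPM, beside 54.3% of all protein-coding genes, and 3 had 0 counts, beside 26.3%.

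The IL-6 axis was present at unequal levels. IL6R, the ligand-binding receptor chain, measured 211 CPM ± 12.3, and the signalling chain IL6ST (gp130) measured 27.8 CPM ± 1.36, a ratio of 7.61 ± 0.306. STAT3 measured 50.04, 37.4 and 34.0 CPM (40.5 CPM ± 8.45), highest in replicate 1. JAK1 was at 22.01 CPM ± 1.64, TYK2 at 12.9 CPM ± 1.58 and JAK2 at 3.25 CPM ± 0.743. STAT5B measured 7.19 CPM ± 0.704, whereas STAT5A had 1 count in all. SOCS3, a feedback inhibitor of the receptor, was at 3.30 CPM ± 1.13, and SOCS1 had 1 count.

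Cell cycle kinases were expressed at moderate to high levels. CDK1 measured 192 CPM ± 4.48, AURKB 163 CPM ± 7.35, CDK6 152 CPM ± 10.4 and CDK2 101 CPM ± 5.16. CDK6 exceeded CDK4 by a ratio of 1.31 ± 0.00999, but CDK4, at 116 CPM ± 8.47, lay within 5% of TSPAN31, whose exons it overlaps, in every library. CDK9, the kinase of P-TEFb, was listed low at 25, 9 and 12 counts (2.43 CPM ± 1.21). All 27 genes of proliferation reached 10 CPM, with a median of 104 CPM, led by STMN1 (726 CPM ± 31.9) and TOP2A (467 CPM ± 25.5).

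Among the BET bromodomain genes, a family that JQ1 targets, BRD2 measured 113 CPM ± 8.26 and BRD3 14.3 CPM ± 1.31, and the libraries of these genes did not overlap. The testis member BRDT had 0 counts.

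**Figure D4:**
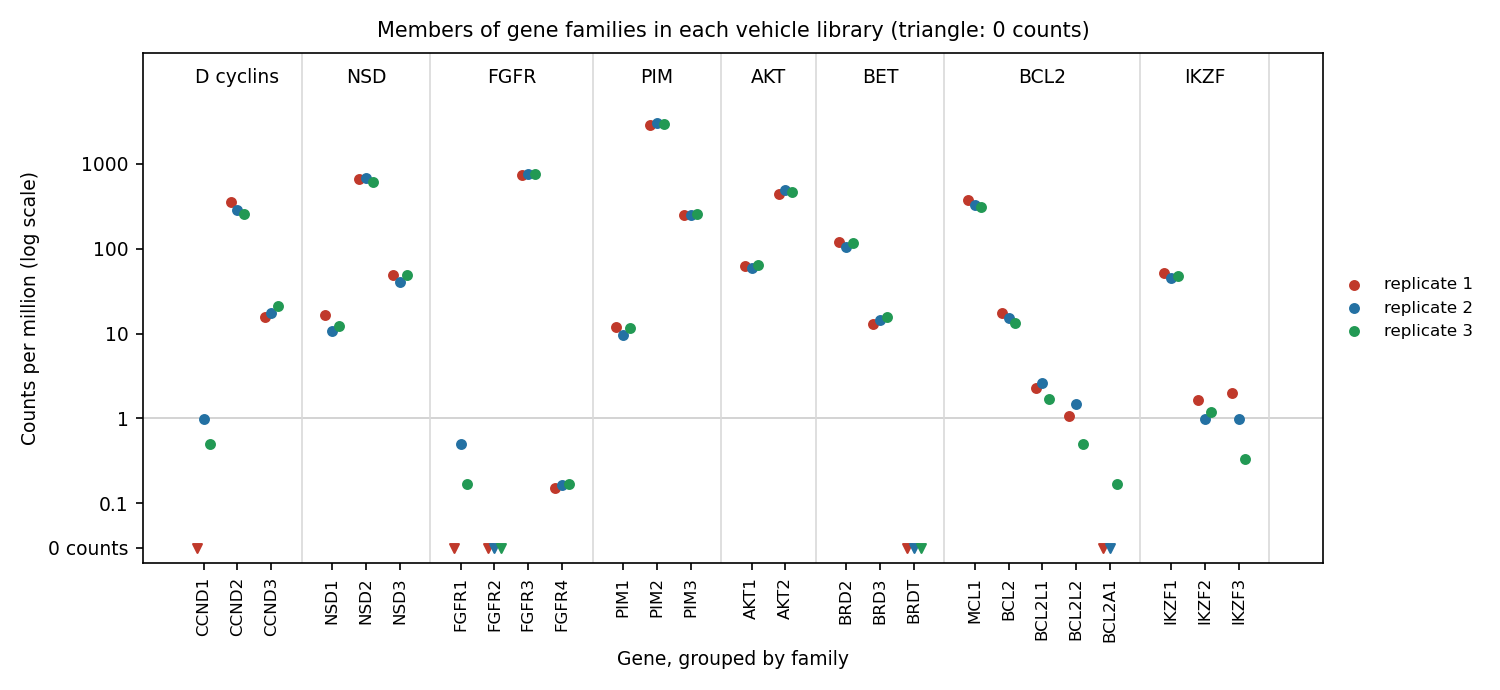
CPM in each vehicle library (vertical, log scale, 0 counts as triangles) for members of 8 gene families (horizontal). FGFR3, NSD2, PIM2, AKT2, CCND2 and MCL1 lie above the other members drawn of their families in each of the 3 libraries.

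Among survival genes, MCL1 led the anti-apoptotic BCL2 family. MCL1 measured 371, 326 and 314 CPM (337 CPM ± 30.4), BCL2 17.3, 15.3 and 13.3 CPM (15.3 CPM ± 1.99) and BCL2L1 (BCL-XL) 2.20 CPM ± 0.481. MCL1 and BCL2 were both highest in replicate 1 and lowest in replicate 3, and MCL1 exceeded BCL2 by a ratio of 22.1 ± 1.28. BCL2A1 had 1 count in all and BCL2L10 had 0. Both effectors of the mitochondrial pathway were detected, BAK1 at 37.4 CPM ± 0.935 and BAX at 11.5 CPM ± 0.311, whereas BOK had 0 counts. The BH3-only genes, whose products oppose the survival proteins, were led by BCL2L11 (BIM) at 30.4 CPM ± 2.48, with exons shared with MIR4435-2HG at 307 CPM. BID, BAD and BMF followed at 17.3 to 19.4 CPM, and no pair of them was separated. PMAIP1 (NOXA) was at 12.4 CPM ± 0.992 and BBC3 (PUMA) at 3.85 CPM ± 0.838.

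Caspase genes and their inhibitors were mostly moderate. CASP8 measured 67.0 CPM ± 2.80, above CASP9 at 6.36 CPM ± 1.82. BIRC5 (survivin) stood at 127 CPM ± 9.66, BIRC2 at 56.5 CPM ± 1.37 and XIAP at 23.6 CPM ± 2.00, against 0.639 CPM for BIRC3. In the NF-kB list, RELA measured 81.5 CPM ± 5.90 and NFKB1 20.4 CPM ± 1.09. Members of the alternative arm were lower, with RELB at 5.82 CPM ± 1.16, MAP3K14 (NIK) at 2.42 CPM ± 0.0573 and NFKB2 at 1.49 CPM ± 0.481. TNFAIP3, a feedback target, was at 1.23 CPM ± 0.361. IKBKG (NEMO), a subunit of the kinase complex that most cells need, was listed at 0, so a 0 in the table may also reflect how tags were assigned, and this was not tested.

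All 10 genes of the cereblon ligase and its drug-induced substrates reached 1 CPM. CRBN, the receptor of thalidomide analogues, was listed at 15.5 CPM ± 0.508, and the adaptor DDB1 at 125 CPM ± 12.7. Among the substrates, GSPT1 measured 170 CPM ± 7.73 and IKZF1 48.4 CPM ± 3.65, against 1.099 CPM ± 0.823 for IKZF3. The order was the same for IKZF1 and IKZF3 in every library, and their ratio ran from 26.5 to 142, with IKZF3 at 13, 6 and 2 counts. In the IRF family, IRF4 at 310 CPM exceeded the next member, IRF3, by a ratio of 22.2 ± 2.83, and IRF8, a B cell member, had 3 counts.

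The silent side of the transcriptome followed lineage. Among protein-coding genes, 5088 of 19335 (26.3%) had 0 counts in the 3 libraries, and a further 3742 had counts but stayed under 1 CPM. By gene symbol, 336 of 350 olfactory receptor genes, 89 of 92 keratin-associated protein genes and 35 of 39 beta defensin genes had 0 counts, and none of the 3 families had a member at 1 CPM. All 13 alpha interferon genes were at 0. By contrast, 448 of 502 ZNF genes had a count and all 35 nuclear subunit genes of respiratory complex I reached 1 CPM. Of 39 HOX genes, 23 had 0 counts and HOXA2 alone reached 1 CPM, at 2.39 CPM ± 1.09. Clustered protocadherins differed from the olfactory receptors, since 48 of 51 had at least 1 count, but 1 reached 1 CPM. The highest, PCDHB2, was at 2.13 CPM, below the 5 CPM from which identifiers were marked as sharing reads. Whether 1 set of tags was listed under several of these genes is therefore not known.

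Markers of other cells that a culture could hold were at or near 0. Of 15 T and NK cell genes none reached 1 CPM, and CD3D, CD2, CD7, CD8A and NKG7 had 0 counts. The summed level of these 15 genes was 1.06 to 1.35 CPM. Endothelial genes summed to 0.455 to 0.505 CPM, with PECAM1, CDH5 and VWF at 0, and 11 of 14 liver genes, ALB among them, were at 0. Epithelial and fibroblast genes summed to 2.69 to 3.46 CPM, with none of 18 at 1 CPM. Of 15 myeloid genes, LYZ alone reached 1 CPM, from 3, 3 and 16 counts, and S100A8, MPO and CD163 had 0 counts.

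Some genes of other lineages did not follow this pattern. HBD, the delta globin gene, gave 3467, 2865 and 2801 counts (490 CPM ± 31.2), rank 217 among protein-coding genes. HBB, its beta globin neighbour, measured 44.9 CPM ± 7.14, a ratio of HBD over HBB of 11.2 ± 2.50. HBA1 and HBA2 had 0 counts, ALAS2 had 2 counts, and the gamma globin genes HBG1 and HBG2 had 5 counts together. HBE1, in the same cluster on chromosome 11, gave 16, 7 and 6 counts (1.53 CPM ± 0.780). In RefSeq order the olfactory receptor genes on either side of the cluster were at 0. The signal in HBD was thus present without the alpha globins. The listed red cell and platelet markers other than HBD, HBB and EPOR stayed under 1 CPM, and the source of the HBD tags was not tested. Other exceptions were MBP (56.1 CPM ± 3.01) and the synaptic vesicle gene SYT1 (22.1 CPM ± 3.52) among neural genes, and TTN (7.61 CPM ± 0.653) and MB (6.12 CPM ± 0.226) among muscle genes. Below 1 CPM were 8 of 14 neural genes and 12 of 14 muscle genes.

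Replicate spread followed the level. The median CV over the 3 libraries was 21.5% for identifiers from 1 to under 10 CPM, where counting error alone gives 21.4%. From 10 to under 100 CPM the median CV was 8.81% beside 7.81% from counting, from 100 to under 1000 CPM it was 5.55% beside 3.00%, and at 1000 CPM or more 5.30% beside 0.990%. Below 10 CPM the median CV was thus close to the counting value, and at 100 CPM or more it exceeded it. A CV from 3 libraries tends to fall below the true CV, so closeness does not show counting as the only source. The median biological coefficient of variation by gene, which leaves counting out, was 0.106 from 1 to under 10 CPM. This median covers the 3866 genes of that level kept by the edgeR count filter, not all identifiers. From 100 to under 1000 CPM the value was 0.0719. Among kept genes, the estimated relative spread beyond counting was thus not smaller at low levels. Each estimate is drawn by edgeR toward a trend across genes, which had a median of 0.114 from 1 to under 10 CPM. The identifiers with the most spread beyond counting were MALAT1, a nuclear long non-coding RNA, at 4404, 3456 and 3326 CPM, and RPL27A at 7631, 8865 and 9305 CPM. MT-ND1 measured 5614, 4639 and 4500 CPM and the actin gene ACTG1 2343, 1747 and 1762 CPM. In these 4 genes replicate 1 lay farthest from the other libraries, high for MALAT1, MT-ND1 and ACTG1 and low for RPL27A.

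The same library stood apart in whole classes. Cytosolic ribosomal proteins summed to 160782 CPM in replicate 1 against 168348 and 169758 CPM in replicates 2 and 3. Mitochondrially encoded messages summed to 49854 CPM against 46206 and 45926 CPM. IGLC3 and IGLC2 behaved otherwise, with replicate 2 lowest and replicate 3 highest. What set replicate 1 apart was not tested. Stable genes of high level included JCHAIN (CV 0.742%), FGFR3 (CV 1.47%) and PIM3 (CV 0.370%), beside counting errors of 0.729%, 1.46% and 2.53% in that order.

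**Figure D5:**
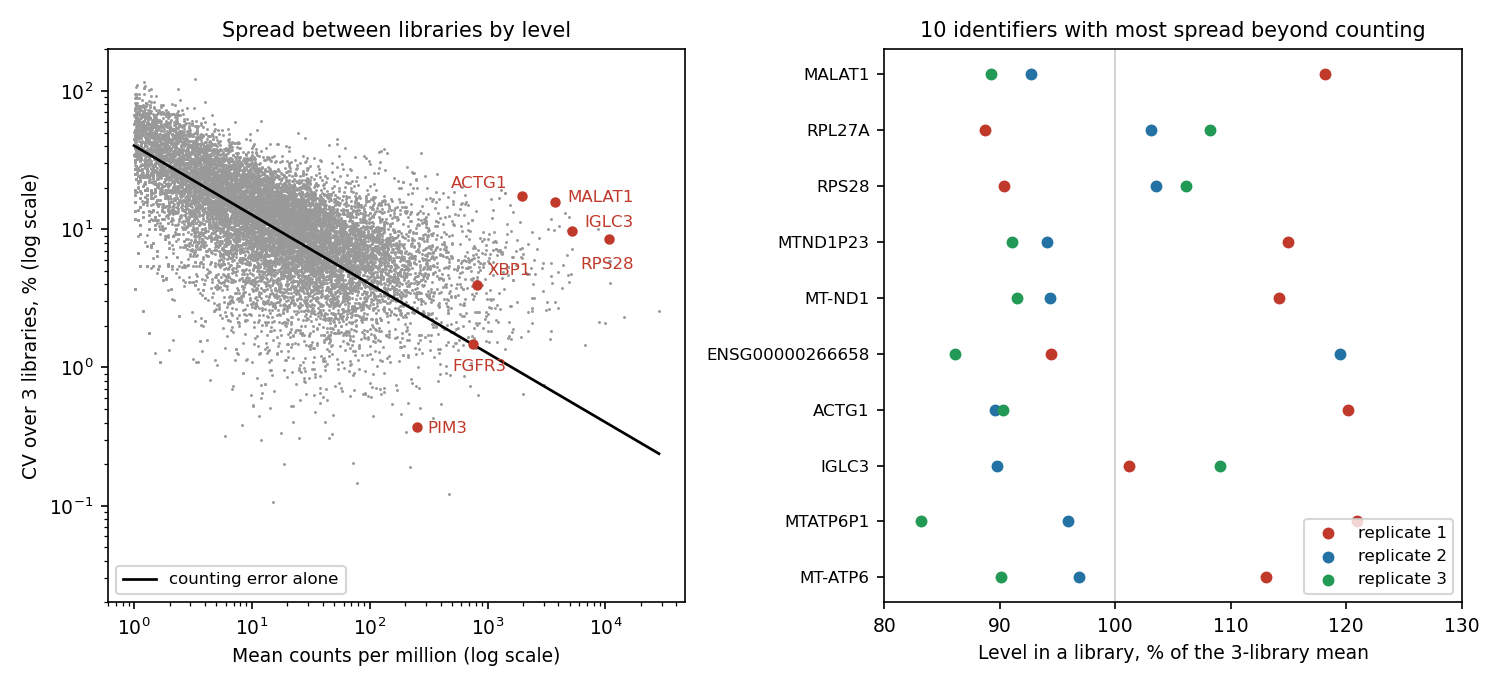
Left, CV over 3 vehicle libraries in percent against mean CPM (both log scales) for identifiers at 1 CPM or more, with the CV from counting error as a line. Right, level in each library as a percent of the mean for the 10 identifiers with most spread beyond counting, where replicate 1 is the highest or lowest library in 8 of the 10.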

How the data were processed

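RNA was measured in 12 QuantSeq 3' mRNA libraries of OPM2, sequenced as single-end reads of 75 bases per the labels' protocols. The values used are raw counts per Ensembl gene identifier, which the authors deposited as whole numbers with 1 column per library and no normalization. Per the submitters' processing notes, the build is hg19, and the tools listed are HISAT2 2.1.0, cutadapt 1.7, SAMtools 1.9, bcl2fastq 2.17.1.14, FastQC 0.11.5, limma, Subread and featureCounts. For the annotation, the strand setting and multi-mapping reads no statement is given in the sources used here, so antisense, overlapping and near-copy genes are uncertain.

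The 3 DMSO libraries were grouped by their treatment label, and the other libraries served for totals and for counts of genes at 0 in DMSO. CPM is the count over the library total, all identifiers included, times 1000000. Identifiers without a symbol (23592) held 8.53% of DMSO counts and pseudogenes 13.1%. Since 1 group was described, there was no test between groups. Order was read from whether libraries overlapped. The biological coefficient of variation came from edgeR 4.0.16 (R 4.3.3, intercept only, TMM factors, filterByExpr with minimum count 10 and minimum total count 15), checked on simulated data. DESeq2 1.42.0 size factors, other scalings, filters and left-out libraries were alternatives. Figures and tables used Python 3.11.15, pandas 2.3.3, numpy 2.4.6 and matplotlib 3.10.9.

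Symbols came from a gene name table and gene types, exon overlaps and transcript lengths from GENCODE 29 on GRCh38, a build other than that of the counts, so no count was placed by coordinate. Gene order and promoters came from RefSeq, GRCh38.p14. Identifiers at 5 CPM or more were marked as sharing reads where their exons overlap an identifier at 50% or more of their level, or where an identifier of like symbol had counts within 5% in every library. The level limits were 1, 10, 100 and 1000 CPM. Of 957 listed genes in 46 lists, 951 matched an identifier, and PSMB3, PIK3R6, TRAC, NEFL, BAGE and MIZ1 were not analysed here. Protein lengths were planned and are not analysed here. Some listed genes count in list totals and medians but are not reported here by name.

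The lists and members were chosen with earlier results of these data known. Named genes are the 5 markers, the 25 highest identifiers, the 5 highest and the undetected members of each list, all members of lists of up to 16 genes, the 10 with most variance beyond counting among genes of at least 50 CPM, and the 10 highest protein-coding genes outside the lists. Other named members, the ratios, the neighbours of CDKN2C and HBD, the families by symbol, the printed promoters, the letters CCGGAAG, the search window and strands for TATAAA and the CpG mark of 0.6 were chosen after values were seen.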

Additional observations from a re-analysis of the deposited data

Results flagged for a closer look

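Of 39365 identifiers with 0 counts in the 3 DMSO libraries, 1 had at least 10 counts in every library of another group, which is what singled it out. ENSG00000233030, annotated as antisense, gave 34, 21 and 31 counts in the 3 libraries of 18DS (4.33 CPM ± 0.659). JQ1 and BKM120 had 0 identifiers of this kind, with a highest count in any library of 12 and 11. Counts below that minimum were common, since 3354 to 3444 of the 39365 identifiers had at least 1 count in a given treatment group. No test was made, because the identifiers were chosen by their DMSO values.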

How the results depend on the processing

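Each library held 5940610 to 6594995 counts, so 1 count is worth 0.152 to 0.168 CPM and genes near 1 CPM rest on few counts. The number of identifiers at 1 CPM or more, the list members at 1 CPM or more and the number at 0 stayed within 1.5 times under the scalings, thinning and left-out libraries tried, and counting protein-coding genes alone gave 5088 at 0. With totals that leave out mitochondrially encoded genes the 100 highest held 32.8% of the remaining counts. The biological coefficient of variation was 0.0437 to 0.0897 when a library was left out, lowest without replicate 1. The median CpG ratio of genes at 100 CPM or more was 0.874 with the limit at 10 CPM, 0.879 from the upstream part of the window and 0.891 to 0.893 with a library left out. For undetected genes it was 0.340 from the upstream part and 0.357 to 0.362 with a library left out. Marker levels moved by more than 1 SD where totals left out mitochondrially encoded genes or, in an alternative added after seeing the data, pseudogenes and unnamed identifiers. The latter raised all 5 by 25.3%. No paired analysis was possible because the results come from 1 group and from no test between groups.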
